A study of Sus scrofa with 6 samples.

Results

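HMOX1, NQO1, SRXN1, ME1, GCLC, GCLM, TXNRD1, TXN and GSR, 9 genes known as targets of the transcription factor NRF2, were compared between control and ischemic pig kidney cortex. A probe was taken where the GeneName entry of the scanner files held one of these symbols. That gave 16 of the 43603 probes on the array, for 6 of the 9 genes: TXNRD1 with 5 probes, HMOX1, NQO1 and TXN with 3 each, and ME1 and GSR with 1 each. SRXN1, GCLC and GCLM had no probe under that name. Another 9 probes of the 9 genes were identified through a RefSeq accession, a gene number or the gene's full name in the probe description, and are reported apart from the 16. All 16 probes and 8 of the 9 further probes were among the 25013 probes bright enough to test.

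The kidneys came from Large White pigs aged 3 months, each kidney from a different pig. The control group (n = 3) was frozen directly after removal of the organ. In the ischemia group (n = 3) the vessels were clamped, the removed organ stayed clamped for 60 min at 37 °C, was flushed with University of Wisconsin solution, a fluid for organ preservation, at 4 °C, and was kept at 4 °C for 24 h before freezing. The groups therefore differed in warm clamping, flushing and cold storage at once, and the labels name no reperfusion. The comparison asks how the RNA of cortex differs after this sequence from that of cortex frozen at removal.

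Total RNA of renal cortex was labelled with Cy3, and each sample was hybridised to 1 array. Of the spots of an array, 52.6 to 61.4% were well above background and none was saturated, and correlations between arrays were 0.960 to 0.983. Values are the log2 of the spot signal minus the 75th percentile of the same array, so a value of 0 marks a probe at that percentile and negative values mark dimmer probes. Differences are ischemia minus control on this log2 scale, with the standard error (SE) of the limma fit, and adjusted p-values are Benjamini-Hochberg values over all 25013 probes. Each of 3 slides carried 1 control and 1 ischemia array: slide 1 held control 1 and ischemia 2, slide 2 held control 2 and ischemia 3, and slide 3 held control 3 and ischemia 1. On every slide the control array had position 4 and the ischemia array position 3; group and position therefore cannot be told apart. Only 3 arrays a group limit the precision.

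NRF2 is a transcription factor that cells normally break down: KEAP1 binds it and hands it to a ubiquitin ligase. Oxidants and electrophiles modify KEAP1, NRF2 then accumulates, pairs with small MAF proteins and binds antioxidant response elements of genes for haem breakdown, quinone reduction, glutathione and thioredoxin metabolism and NADPH supply. In the kidney the pathway is known for its part in the defence of tubule cells against oxidative injury.

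Each probe is a 60-base DNA oligonucleotide, and the probes of 1 gene start at different bases of its transcript. The 6 printed here are the 3 NQO1 probes, 2 of which have the smallest p-values among the 16, and 1 probe each of HMOX1, TXNRD1 and TXN. They are written 5′ to 3′ with the first and last base on the transcript of the array design; genome coordinates are not used here. Capitals mark the 2 bases that the neighbouring NQO1 probes share.
NQO1 A_72_P553981, bases 377 to 436: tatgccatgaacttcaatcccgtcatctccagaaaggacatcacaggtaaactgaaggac
NQO1 A_72_P536730, bases 922 to 981: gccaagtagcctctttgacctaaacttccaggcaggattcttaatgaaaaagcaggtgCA
NQO1 A_72_P127796, bases 980 to 1039: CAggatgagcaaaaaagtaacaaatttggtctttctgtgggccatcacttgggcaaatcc
HMOX1 A_72_P622079, bases 237 to 296: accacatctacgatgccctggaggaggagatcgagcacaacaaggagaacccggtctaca
TXNRD1 A_72_P455657, bases 843 to 902: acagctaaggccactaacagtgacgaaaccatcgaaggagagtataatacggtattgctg
TXN A_72_P177678, bases 157 to 216: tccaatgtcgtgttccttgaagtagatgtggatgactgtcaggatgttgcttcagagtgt
Apart from these 2 bases the NQO1 probes read separate stretches, so they are separate measurements of 1 gene in the same RNA, not replicates of the condition.

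No probe of the 9 genes passed an adjusted p of 0.05. Over the whole array 1 probe did (0.004%), and adjusted p-values of the 16 probes ran from 0.760 to 0.979. In direction, 15 of the 16 probes had lower means in ischemic kidneys, against 55.8% of all probes tested, and the median difference was -0.21 against -0.04 over all probes. Probes of 1 gene read the same RNA, so the 16 stand for 6 genes and are not 16 separate outcomes. By the brightest probe of each gene, further probes included, 8 of the 9 genes were lower, and 5 of the 9 with median centring. The probes of NQO1, HMOX1 and ME1 took up the low end: 6 of the 16 lay more than 0.5 below control, where 10.4% of all probes did, and all 6 belonged to these 3 genes. With each array centred on its median in place of the 75th percentile, 8 of the 16 were lower, with a median of -0.065, and the median of all probes moved to 0.11. Centring shifts all probes of an array alike, here by 0.149 for every tested probe of the 9 genes. It therefore could not change the distance between the median of the 16 and that of all probes, which stayed at -0.17. Settings that could change this distance gave -0.32 without control 3, -0.11 with normexp background correction and -0.066 with a filter on all 6 arrays. In the authors' deposited table, which holds 8 of the 16 probes, it was 0.055. As reported, the spread of the 16 was from -0.70 for an HMOX1 probe to 0.39 for a TXNRD1 probe.

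**Figure D1:**
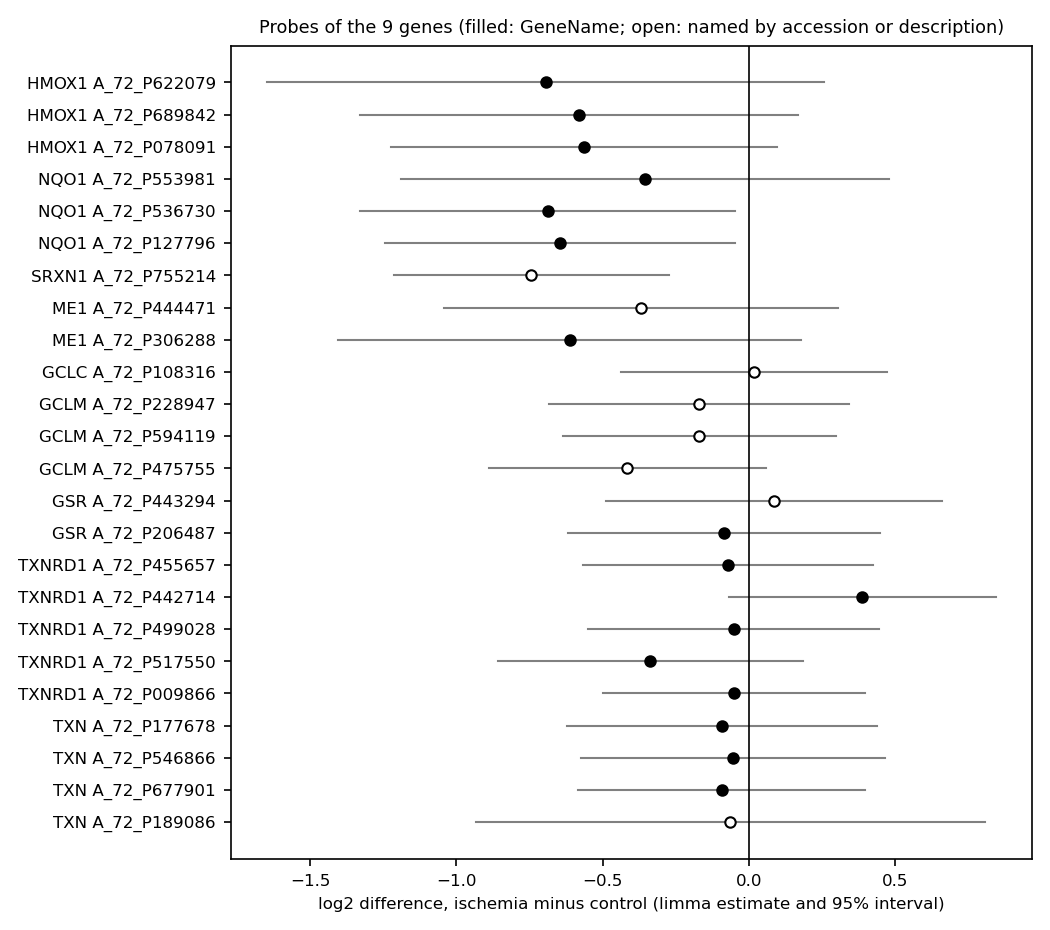
Difference between ischemia and control on the log2 scale (horizontal axis) for the 24 tested probes of the 9 genes, as limma estimate (point) with its 95% interval (line); filled points are the 16 probes found by GeneName and open points the 8 further ones. The probes of HMOX1, NQO1, SRXN1 and ME1 lie left of 0, those of GSR, TXNRD1 and TXN lie around 0, and the intervals of 2 NQO1 probes and the SRXN1 probe do not cross 0.

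NQO1 encodes the cytosolic quinone reductase that NRF2 is best known for, a flavoprotein that spends NADPH to reduce quinones in a single step. The probe at base 922 (A_72_P536730) read -0.57, -0.56 and -0.80 in control kidneys 1 to 3 and -1.40, -1.77 and -0.83 in ischemia kidneys 1 to 3. All ischemia values lay below all control values, as they did for 5.01% of all probes, but ischemia 3 was only just below control 3, and ischemia 2 was the lowest. The difference was -0.69 ± 0.27 (SE), a 1.61-fold higher mean signal in control, with an unadjusted limma p of 0.0389 and an adjusted p of 0.765, and was -0.44 with normexp background correction and quantile normalization.

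The neighbouring NQO1 probe at base 980 (A_72_P127796) gave nearly the same series: -0.78, -0.95 and -1.31 in control and -1.71, -1.97 and -1.29 in ischemia. Here ischemia 3 reached the level of control 3 and the groups overlapped by that 1 kidney. The difference was -0.64 ± 0.25 (SE), with an unadjusted limma p of 0.0383 and an adjusted p of 0.760, and was -0.33 with normexp and quantile normalization and -0.29 in the authors' deposited table. These 2 NQO1 probes were the only ones of the 16 at an unadjusted p under 0.05, 12.5% of the 16 against 6.3% of all probes. That count was 0 without control 1, control 2 or ischemia 1, and 0 with median centring. It was 3 without ischemia 2, 6 without control 3 and 7 with array weights. The calls over the whole array changed too. Of 25013 probes, 829 were lower and 747 higher at that p as reported, and 2780 and 1911 with array weights. They were 1037 and 659 without control 3, 603 and 619 without ischemia 2, and 2193 and 745 without control 1. The third NQO1 probe, at base 377 (A_72_P553981), was dim: it was well above background in 3 control and 2 ischemia kidneys. It read -2.53, -2.92 and -3.81 in control and -3.61, -3.64 and -3.08 in ischemia, with control 3 the lowest of all 6. Its difference was -0.35 ± 0.36 (SE), with an adjusted limma p of 0.941, and became -0.075 without control 1, -0.71 without control 3 and -0.53 without ischemia 3.

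HMOX1 encodes haem oxygenase 1, the inducible enzyme that opens haem to biliverdin, iron and carbon monoxide; its gene is also held down by the repressor BACH1. The probe at base 1492 (A_72_P078091) read 5.48, 5.52 and 4.99 in control kidneys 1 to 3 and 4.74, 5.20 and 4.36 in ischemia kidneys 1 to 3. Control 3 lay below ischemia 2, so the groups overlapped, and ischemia 3 was the lowest. The difference was -0.56 ± 0.28 (SE), 1.48-fold higher in control, with an adjusted limma p of 0.852, and became -0.36 without ischemia 3.

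The other HMOX1 probes repeated this order of kidneys. The probe at base 1291 (A_72_P689842) read 4.13, 4.03 and 3.39 in control and 3.25, 3.76 and 2.80 in ischemia, with a difference of -0.58 ± 0.32 (SE) and an adjusted limma p of 0.880. The probe at base 237 (A_72_P622079) read 1.77, 1.68 and 0.63 in control and 0.42, 1.32 and 0.26 in ischemia, with a difference of -0.70 ± 0.41 (SE) and an adjusted limma p of 0.889. In all 3 probes control 1 and control 2 were the highest, ischemia 2 was the highest of the ischemic kidneys, and ischemia 3 was the lowest. Across the 6 arrays the HMOX1 probes correlated with each other at r = 0.955 to 0.991, as a description of probes that share each array's RNA. Leaving out control 3 moved the probe at base 237 to -1.06, and leaving out ischemia 3 moved the probe at base 1291 to -0.34. The latter stood at -0.28 in the authors' deposited table.

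SRXN1 encodes sulfiredoxin, which repairs over-oxidised peroxiredoxins. Its probe (A_72_P755214) does not have the symbol as its GeneName and was found by its RefSeq accession. It read -3.30, -2.96 and -2.87 in control and -3.73, -3.75 and -3.87 in ischemia. The groups did not overlap, and the ischemic kidneys lay close together. The probe was dim, with raw signals of 18.2 to 36.5 units, and was well above background in 3 control and 2 ischemia kidneys. The difference was -0.74 ± 0.20 (SE; 95% interval -1.21 to -0.27), with an unadjusted limma p of 0.00705 and an adjusted p of 0.596. Its size differed between settings: it was -0.59 with quantile normalization, -0.33 with normexp background correction, -0.18 with both, and -0.15 in the authors' deposited value table.

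ME1 encodes the cytosolic malic enzyme, which makes NADPH while turning malate to pyruvate. The probe found by GeneName (A_72_P306288, base 2988) read -2.38, -2.39 and -2.73 in control and -2.65, -2.83 and -3.85 in ischemia. Ischemia 3 stood far below the rest and ischemia 1 lay among the controls. The probe was dim, with raw signals of 20.3 units in ischemia 3 to 66.4 in ischemia 1, though well above background in all 6 kidneys. The difference was -0.61 ± 0.34 (SE), with an adjusted limma p of 0.880, and was -0.24 without ischemia 3, -0.17 with normexp and quantile normalization and -0.094 in the authors' deposited table. The further ME1 probe (A_72_P444471, base 2096) read 0.44, 0.64 and 0.15 in control and 0.30, 0.33 and -0.51 in ischemia, again with ischemia 3 the lowest. Its difference was -0.37 ± 0.29 (SE), with an adjusted limma p of 0.919, and became -0.092 without ischemia 3 and -0.098 in the authors' deposited table.

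**Figure D2:**
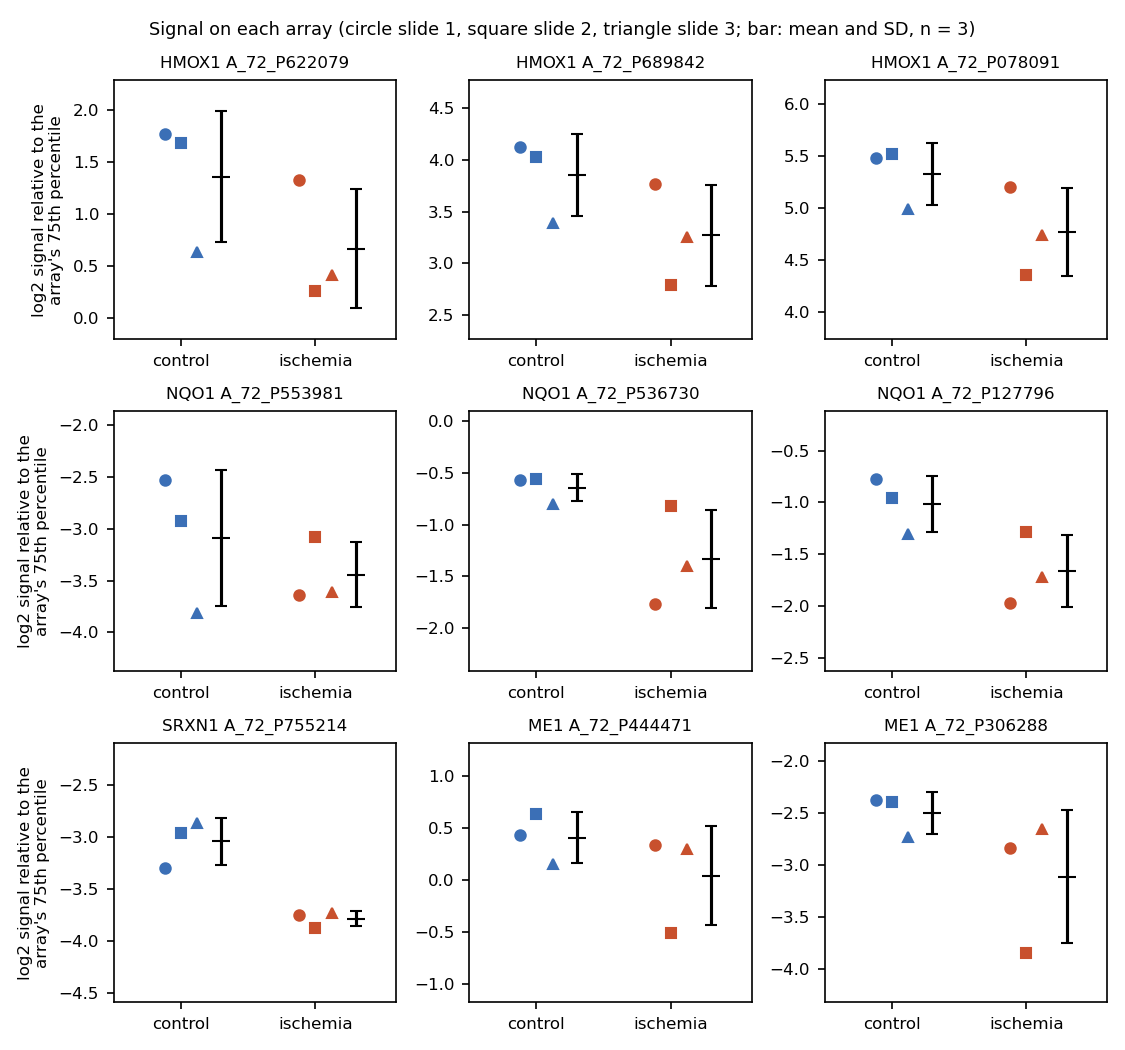
Log2 signal relative to the array's 75th percentile (vertical axis, the same span in every panel) in each of 3 control and 3 ischemia kidneys for the probes of HMOX1, NQO1, SRXN1 and ME1; marker shape gives the slide and the bar gives mean and SD (n = 3). Ischemia 3, the red square, is the lowest kidney for HMOX1 and ME1 and the highest ischemic kidney for NQO1.

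The 2 leading genes did not share their lowest kidney. Within slide 1 the NQO1 probes differed by -1.11, -1.20 and -1.19 in the order of their positions, and within slide 2 by -0.16, -0.26 and -0.33. For HMOX1 the order of the slides was turned: -0.44, -0.37 and -0.28 within slide 1, and -1.43, -1.23 and -1.16 within slide 2. ME1 went with HMOX1, at -1.46 for the probe found by GeneName within slide 2 and -0.45 within slide 1. Over the 6 arrays the HMOX1 probes correlated with the ME1 probes at r = 0.70 to 0.89 and with the NQO1 probes at r = 0.20 to 0.57. Such values were not particular to ME1. The HMOX1 probes correlated at r = 0.72 to 0.87 with the GeneName probes of TXN, whose group differences were near 0. With the TXNRD1 probe at base 3005 they correlated at r = 0.84 to 0.90. These are descriptions of probes that share the RNA and scaling of each array. Whether the 2 slides differ in these effects was not tested, since each holds 1 kidney of each group.

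Slide 3 separated the genes further. Within it 8 of the 16 probes were lower in the ischemic kidney, against 13 within slide 1 and 14 within slide 2. The medians of the 16 were -0.27, -0.36 and 0.02 within slides 1, 2 and 3, where all probes had medians of -0.01, -0.10 and 0.01. SRXN1 was lower within each slide, at -0.46, -0.91 and -0.87. The 3 HMOX1 probes also were, with values within slide 3 from -0.25 to -0.14, and so were the NQO1 probes at bases 922 and 980, at -0.60 and -0.41 within slide 3. With slide as a block in the fit, 2 of the 16 probes, those at NQO1 bases 922 and 980, had an unadjusted p under 0.05, against 9.26% of all probes, and the smallest adjusted p was 0.492.

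**Figure D3:**
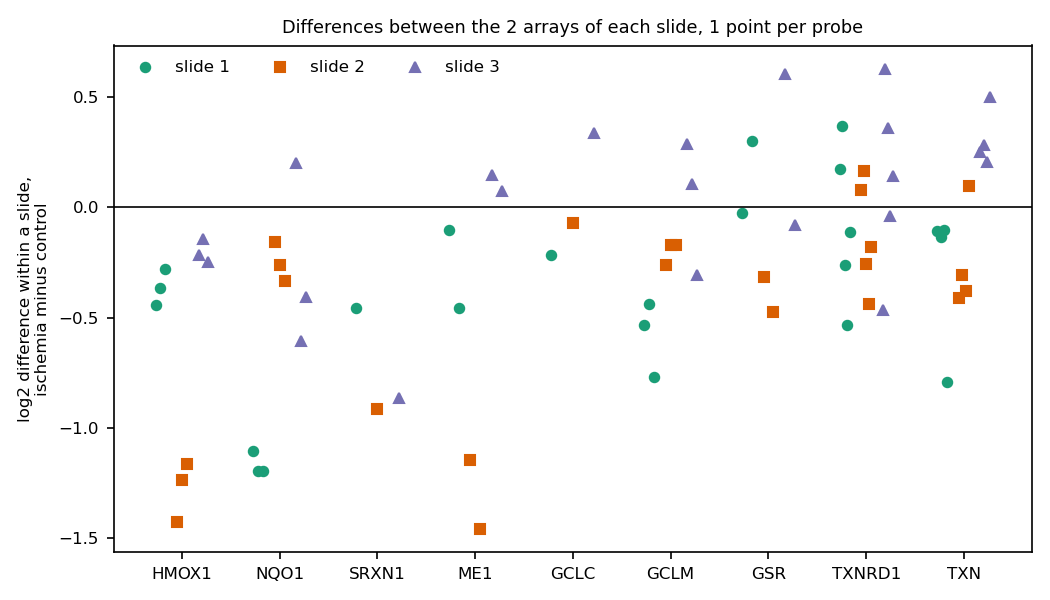
Log2 difference between the ischemia and the control array of the same slide (vertical axis) for every tested probe of the 9 genes, 1 point per probe, by slide. NQO1 is lowest within slide 1 (-1.20 to -1.11), HMOX1 and ME1 within slide 2 (-1.46 to -1.15), and most TXN, TXNRD1 and GCLM points of slide 3 lie above 0.

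Glutathione is made in a first step by glutamate-cysteine ligase, whose catalytic subunit is GCLC and whose modifier subunit is GCLM. None of their 4 probes has the gene's symbol as its GeneName. The GCLC probe (A_72_P108316) read -1.79, -1.82 and -2.05 in control and -1.71, -2.01 and -1.88 in ischemia. The groups were mixed and the difference was 0.02 ± 0.19 (SE), with an adjusted limma p of 0.994. Its sign turned in some settings, for example to -0.045 with normexp. Of the 3 GCLM probes, the one at base 1595 (A_72_P475755) read -0.94, -1.20 and -1.28 in control and -1.59, -1.71 and -1.37 in ischemia. Ischemia lay below control in all arrays, with a difference of -0.42 ± 0.20 (SE) and an adjusted limma p of 0.850. At bases 1067 (A_72_P228947) and 1349 (A_72_P594119) both GCLM differences were -0.17, with SE of 0.22 and 0.20, and the groups overlapped.

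GSR encodes glutathione reductase, which returns oxidised glutathione to its reduced form with NADPH. Its GeneName probe (A_72_P206487) read 3.74, 3.83 and 3.80 in control and 3.72, 4.04 and 3.36 in ischemia. The ischemic kidneys spread to both sides of the controls, which lay within 0.1 of each other. The difference was -0.08 ± 0.23 (SE), and that of the further GSR probe (A_72_P443294) was 0.09 ± 0.24 (SE), with adjusted limma p-values of 0.968 for both. The 95% intervals ran from -0.62 to 0.45 and from -0.49 to 0.66.

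TXN, thioredoxin, reduces disulphides in other proteins and passes electrons to peroxiredoxins. The brightest of its probes (A_72_P177678, base 157) read 6.32, 6.16 and 5.86 in control and 6.11, 6.22 and 5.75 in ischemia. The groups overlapped almost entirely. The differences of the GeneName probes were -0.09 ± 0.23, -0.05 ± 0.22 and -0.09 ± 0.21 (SE) at bases 157, 306 and 421, and the probes at bases 306 and 421 share a run of 39 bases. Of the further TXN probes, 1 (A_72_P189086) differed by -0.06 ± 0.37 (SE), and the other (A_72_P170441) stayed too close to background to test in all 6 kidneys.

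TXNRD1 encodes the cytosolic selenoprotein thioredoxin reductase, which recharges thioredoxin with NADPH, and its 5 probes did not move as 1. The probe at base 2283 (A_72_P442714) read -0.94, -1.02 and -1.21 in control and -0.58, -0.57 and -0.86 in ischemia. All ischemic kidneys lay above all controls, as they did for 5.89% of all probes, and it was the only one of the 16 with a higher ischemia mean. The difference was 0.39 ± 0.19 (SE), with an adjusted limma p of 0.854. The probe at base 3005 (A_72_P517550) went the other way: it read 4.00, 3.72 and 3.38 in control and 3.34, 3.47 and 3.28 in ischemia. Control 3 lay below ischemia 2, so these groups overlapped, and the difference was -0.34 ± 0.22 (SE), with an adjusted limma p of 0.906, and -0.19 without control 1.

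The other TXNRD1 probes showed no such spread. At bases 843 (A_72_P455657), 2801 (A_72_P499028) and 3215 (A_72_P009866) the differences were -0.07 ± 0.21, -0.05 ± 0.21 and -0.05 ± 0.19 (SE), and the groups overlapped. The TXNRD1 probe at base 2283 kept its sign in all settings run, from 0.26 to 0.54. The array design placed that probe on an Ensembl transcript only, whereas the other TXNRD1 probes are also placed on a RefSeq transcript. Which transcript forms each probe reads was not tested.

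Averaged over their tested probes, the 9 genes fell into an order in which neighbours differed by less than the larger of their standard errors. SRXN1 stood at -0.74 ± 0.20 (SE, 1 probe), HMOX1 at -0.61 ± 0.33 (3 probes), NQO1 at -0.56 ± 0.28 (3 probes) and ME1 at -0.49 ± 0.31 (2 probes). GCLM followed at -0.25 ± 0.20 (3 probes), and TXN at -0.07, TXNRD1 at -0.02, GSR at 0.0014 and GCLC at 0.02 lay at or near 0. The lowest adjusted limma p among these means was 0.595, for SRXN1.

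**Figure D4:**
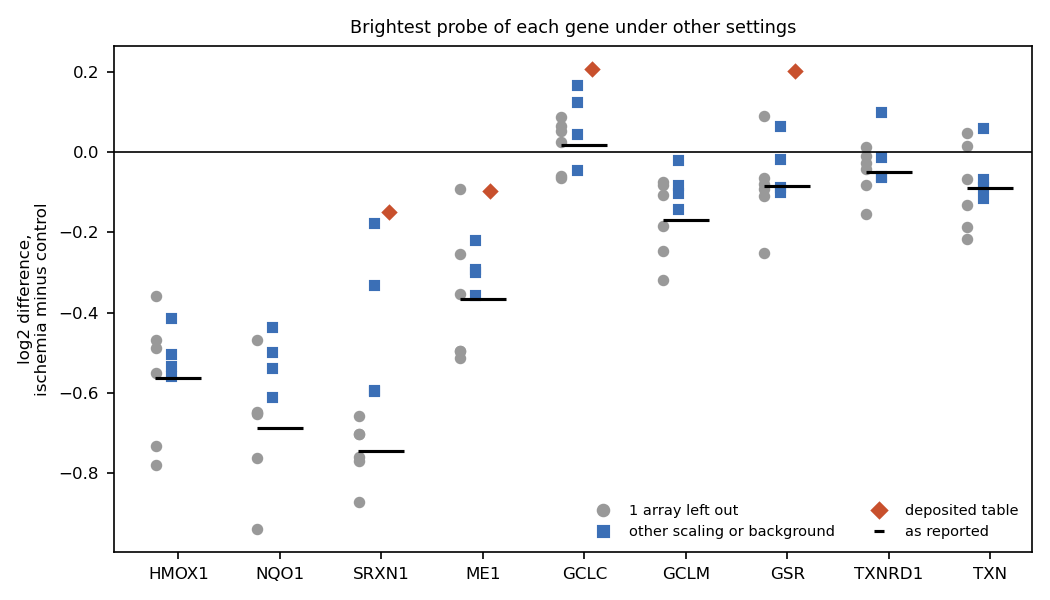
Log2 difference between ischemia and control (vertical axis) for the brightest probe of each of the 9 genes, as reported (black bar), with 1 array left out (grey circles), under other scaling or background correction (blue squares) and in the authors' deposited table where it holds the probe (red diamonds). HMOX1, NQO1, SRXN1 and ME1 stay below 0 in all of these, though SRXN1 ranges from -0.87 to -0.15, and GCLC, GSR, TXNRD1 and TXN fall on both sides of 0.

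The control machinery of the pathway was thinly covered. Of 10 regulators listed, NFE2L2 and KEAP1 were measured. NFE2L2, which encodes NRF2 itself, differed by 0.13 ± 0.26 (SE), with an adjusted limma p of 0.959, and KEAP1 by -0.26 ± 0.21 (SE), with an adjusted limma p of 0.922. MAFF, a small MAF partner, had a probe that was too dim to test.

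Among other genes of the pathway, 36 of 61 listed were measured by their brightest probe, 25 with a lower and 11 with a higher ischemia mean. Of all probes tested, 55.8% were lower as reported. With median centring 19 of the 36 genes were lower, and the median of all probes was 0.11. None of the 36 passed an adjusted p of 0.05 as reported. An unadjusted limma p under 0.05 was found for 4, all lower, where 3.31% of all probes were lower and 2.99% higher at that p. That count was 0 without control 2, 7 without control 3 and 2 with median centring. Over all 25013 probes those settings gave 433 lower and 365 higher, 1037 and 659, and 494 and 961. The median of the 36 was -0.17. Genes for detoxification and export lay lowest as a list, 6 of 7 measured being lower, with a median of -0.67. ABCC2, an apical pump for glutathione and glucuronide conjugates, read 4.99, 5.04 and 4.88 in control and 4.58, 4.12 and 4.19 in ischemia. Its groups did not overlap, and the difference was -0.67 ± 0.21 (SE), with an unadjusted limma p of 0.0133 and an adjusted p of 0.659. CBR1, a carbonyl reductase, differed by -0.79 ± 0.30 (SE), with an adjusted limma p of 0.751.

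The glutathione list had 11 of 14 measured genes lower and 3 higher, with a median of -0.14. Its lowest were the alpha-class glutathione transferases GSTA2, at -1.995 ± 0.75 (SE) with an adjusted limma p of 0.751, and GSTA1, at -1.77 ± 0.74 (SE) with an adjusted limma p of 0.781. GSTA2 read 1.53, 2.75 and 1.02 in control and 1.44, -0.91 and -1.20 in ischemia. GSTA1 read 1.64, 2.99 and 1.20 in control and 1.78, -0.59 and -0.68 in ischemia. In both, ischemia 1 lay among the controls, so the groups overlapped. The 3 tested GSTA2 probes ranged from -3.15 to -1.995. GSTA1 and GSTA2 are close paralogs whose probes may read each other's RNA, so their split is uncertain. Without ischemia 3 the count of lower genes in the list was 7 of 14, with a median of 0.0080. Without control 1 it was also 7 of 14, with a median of -0.022. With median centring it was 7 of 14, with a median of 0.0074, where all probes had a median of 0.11. The median of the list was -0.046 without ischemia 1, -0.28 without control 3 and -0.26 without ischemia 2. In the thioredoxin system 4 of 7 were lower, with a median of -0.01, and 2 of 7 with median centring. TXNIP, which binds and inhibits thioredoxin, read 5.42, 5.17 and 5.41 in control and 5.09, 5.74 and 6.93 in ischemia. The high value was that of ischemia 3 alone, ischemia 1 lay below all controls, and the difference was 0.59 ± 0.44 (SE), with an adjusted limma p of 0.913. The mitochondrial peroxiredoxin PRDX3 differed by -0.21 ± 0.21 (SE), with an adjusted limma p of 0.941.

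NADPH supply was measured by 3 of 5 genes, 1 lower and 2 higher, with a median of 0.02. TKT, transketolase, differed by -0.23 ± 0.28 (SE) and TALDO1, transaldolase, by 0.05 ± 0.31 (SE), with adjusted limma p-values of 0.944 and 0.988. In haem and iron handling 2 of 3 measured were lower, with a median of -0.16. The ferritin chains FTL and FTH1 differed by -0.24 ± 0.20 and -0.16 ± 0.21 (SE), with adjusted limma p-values of 0.930 and 0.944.

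**Figure D5:**
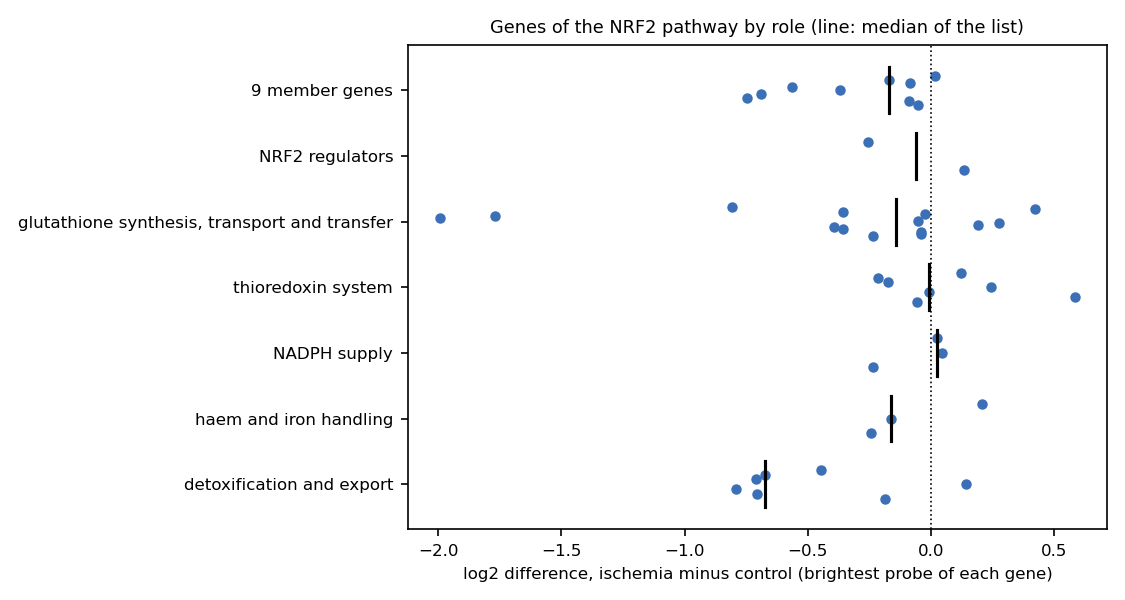
Log2 difference between ischemia and control (horizontal axis) for the brightest probe of each measured gene of the pathway, 1 point per gene, grouped by role, with the median of each list as a black line. The detoxification and export list has the lowest median (-0.67), GSTA2 (-1.995) and GSTA1 (-1.77) are the lowest points, and the thioredoxin and NADPH lists centre near 0.

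The cortex samples also differed in markers of the cells they hold, and the part of this in the results above was not tested. Each marker was read by its brightest tested probe. Of 10 proximal tubule markers, 9 were measured and all 9 had lower ischemia means, 5 of them at an unadjusted limma p under 0.05, where 3.31% of all probes were lower at that p, with a median of -0.72. SLC34A1, 1 of these 5, differed by -0.64 by its brightest probe and by 0.35 by its other tested probe. All 9 stayed lower with each array left out, and 5 of the 6 in the authors' deposited table were lower. The 5 at an unadjusted limma p under 0.05 became 0 without control 1 or ischemia 2 and 1 without ischemia 3. They became 2 without control 2 or ischemia 1, and 1 with median centring. The median was -0.46 without control 1. Of all probes, 829 were lower at that p as reported, 2193 without control 1 and 603 without ischemia 2. That count was 933 without ischemia 3, 433 without control 2, 778 without ischemia 1 and 494 with median centring. The summed signal of the 9 markers, relative to the array's 75th percentile, was 696 to 1050 in control and 616 to 647 in ischemia. Of 10 macrophage markers, 6 were measured, 5 being higher and 4 of these at an unadjusted limma p under 0.05, where 2.99% of all probes were higher at that p. CD14, the marker that was lower, differed by -0.42 by its brightest probe and by 0.34 by its other tested probe. The count of 4 was 2 without control 3 or ischemia 2. Of all probes, 747 were higher at that p as reported, 659 without control 3 and 619 without ischemia 2. The macrophage list had a median of 0.61 and summed signals of 12.6 to 14.6 in control and 18.2 to 23.9 in ischemia. The T cell and other leukocyte list was measured for 4 of 6 genes, with a median of -0.083 and sums of 3.28 to 3.46 in control and 1.19 to 1.83 in ischemia. CD247, a chain of the T cell receptor complex, differed by -1.33 ± 0.23 (SE; adjusted limma p 0.382), whereas CD3E differed by -0.034, PTPRC by -0.13 and CD2 by 0.33. S100A8 and S100A9 were too dim to test. No marker passed an adjusted p of 0.05. Fewer cells of a type and less RNA per cell cannot be told apart in bulk tissue.

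Red cell markers, listed because HMOX1 breaks down haem, were measured for 1 of 6 genes. HBA1 had summed signals of 2.75 to 11.2 in control and 2.25 to 35.5 in ischemia, highest in ischemia 2, and differed by 0.41 ± 0.99 (SE). That difference was -0.66 without ischemia 2, -0.17 without control 2 and 1.33 without ischemia 3, and HBB was too dim to test. Endothelial markers were higher for 4 of 5 measured, with sums of 25.9 to 27.5 in control and 22.7 to 34.6 in ischemia. Fibroblast and smooth muscle markers were higher for 3 of 5, with sums of 93.0 to 110 in control and 114 to 138 in ischemia. In that list ACTA2 differed by 0.28 ± 0.22 (SE), and the collagen gene COL1A2 went the other way, at -1.64 ± 0.30 (SE; unadjusted limma p 0.00091, adjusted p 0.385). The COL1A2 probe was dim, reading -2.35, -1.78 and -1.43 in control and -3.90, -3.24 and -3.35 in ischemia. PDGFRB was also lower, at -0.27, and COL3A1 and DCN were higher, at 0.33 and 0.31. Loop and distal markers were higher for 2 of 3, with sums of 20.7 to 34.3 in control and 24.8 to 53.2 in ischemia. The part of any of these lists in the values of the 9 genes was not tested.

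Outside the 9 genes, the probes most like each lead gene over the 6 arrays were ranked by Pearson's r among 9673 named probes, as a description. The NQO1 probe at base 922 was closest to HOMER2 (r = 0.996) and APOA4 (r = 0.991). The brightest HMOX1 probe was closest to PIGR (r = 0.996), SNX5 (r = 0.994) and ND2 (r = 0.991), and the SRXN1 probe to ADK (r = 0.982), PANK1 (r = 0.974) and PTN (r = 0.972). Values of r over 0.95 were reached by 28 probes for NQO1, 60 for HMOX1 and 11 for SRXN1.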

How the data were processed

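Total RNA of renal cortex from 3 control and 3 ischemia kidneys was hybridised to 1-colour Agilent arrays. Replicates were kidneys of different pigs, per the labels. The deposited scanner files hold spot intensity, background-subtracted within each array by Agilent Feature Extraction (10.10.1.1 per the file headers, 11.5.1.1 per the submitters' processing notes, where limma and R 2.15.2 also appear). A deposited value table of 36796 rows, made by the authors, is on the log2 scale. It followed the log2 median signal (Spearman 0.992 to 0.993 within arrays, across probes), had column medians of 5.91 to 5.99, held 8 of the 16 probes and served as an alternative. How the authors made its arrays comparable is not stated in the labels or headers.

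Values were log2 processed intensity minus the array's 75th percentile, without control and outlier spots, averaged over spots of a probe. Probes well above background on at least 3 of 6 arrays, with values on at least 5, were fitted in limma 3.58.1 (R 4.3.3; lmFit and eBayes, two-sided, Benjamini-Hochberg), without pairing. The fit was tested on simulated data. Symbols came from GeneName, current RefSeq tables by accession or gene number, or full names in descriptions; 12168 of 43603 probes had 1 and 31435 had none. All probes of the 9 genes are named. For each pathway list the 2 genes of smallest p are named, and all measured regulators. For NQO1, SRXN1 and HMOX1 the 3 most correlated named probes are given, except 1 for NQO1 that is not reported here. Members and lists were chosen with earlier results of these data known. Alternatives covered scaling, background correction, filters, blocks, variance models, array weights and leaving out each array. Groups of 3 were not tested for outlying arrays.

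Replicate numbers were not taken as pairs: deviations from group means of same-numbered arrays correlated at -0.35, -0.17 and -0.05, and those of same-slide arrays at 0.34, 0.10 and 0.33.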

Additional observations from a re-analysis of the deposited data

How the results depend on the processing

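Whole-array counts of probes past an adjusted limma p of 0.05 (1 as reported) were 11 with median centring, 0 with quantile normalization, 3 with normexp, 3 with normexp and quantile normalization, 4 in the deposited table, 0 without a filter, 3 with a filter on all 6 arrays, 0 with slide as a block, 0 with the replicate block, 3 with a variance trend, 21 with array weights and 0 to 1 with 1 array left out. No probe of the 9 genes passed in any of these; the smallest adjusted p was 0.0914, for SRXN1 with array weights. Of the 16 probes, 8 were lower with median centring and 3 of 8 in the deposited table, and 11 to 15 with 1 array left out (11 without control 1 or ischemia 3). Their median was 0.13 in the deposited table, -0.36 to -0.10 with 1 array left out, and -0.17 with the further probes, an alternative chosen after seeing the data. All-probe medians were 0.11 with median centring and 0.07 in the deposited table, and unadjusted calls split 829 lower to 747 higher as reported, 494 to 961 and 410 to 3764. Of the 36 pathway genes, 8 of 22 were lower in the deposited table, 19 of 36 with median centring and 19 to 30 of 36 with 1 array left out. These settings were added for the pathway genes after seeing the data. The replicate block left no probe of the 16 at an unadjusted limma p under 0.05, and their smallest adjusted p was 0.994. The SRXN1 probe, 1 of the further probes, had an unadjusted limma p of 0.0260 and an adjusted p of 0.970 there. Signs turned in probes of TXNRD1, TXN, GSR, GCLC and GCLM. With median centring TXNRD1 gave 0.078 (A_72_P455657), 0.098 (A_72_P499028) and 0.099 (A_72_P009866), TXN 0.059 (A_72_P177678), 0.097 (A_72_P546866), 0.057 (A_72_P677901) and 0.086 (A_72_P189086), and GSR 0.065 (A_72_P206487). In the deposited table TXNRD1 gave 0.088, TXN 0.18, 0.17 and 0.20, GSR 0.20 and GCLM 0.037 (A_72_P594119). With normexp TXNRD1 gave 0.0054, TXN 0.0055 and GCLC -0.045, with quantile normalization added TXN 0.0053, with array weights GCLC -0.039, and as a mean of probes GSR 0.0014. With 1 array left out TXNRD1 ranged from -0.17 to 0.089, -0.21 to 0.036 and -0.15 to 0.013, TXN from -0.22 to 0.049, -0.19 to 0.067, -0.19 to 0.030 and -0.45 to 0.20, GSR from -0.25 to 0.090 and -0.081 to 0.24, and GCLC from -0.065 to 0.087. With median centring every probe of the 9 genes moved by the same 0.149; the cause of the other turns was not tested. HMOX1, NQO1, SRXN1 and ME1 kept their direction in all settings run. Signals near background limit SRXN1 and the NQO1 probe at base 377, and low signals limit the ME1 probe at base 2988.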
